A study of Danio rerio with 3 samples.

Results

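AV canal and sinoatrial region, whose myocardium does not do the pumping work, were compared with the working chambers, ventricle and atrium, in 3 dissected zebrafish hearts that had been cut into consecutive 10 µm sections, each sequenced on its own (tomo-seq). Of 117 tissue sections, 45 lay in the AV canal or the sinoatrial region (non-chamber), 39 lay in the working chambers and 33 lay in neither group. Hearts 1, 2 and 3 gave 15, 19 and 11 non-chamber sections, against 13, 17 and 9 chamber sections. All hearts were wild type (Tupfel long fin), 48 hours post fertilization (2 dpf) and untreated, so the groups differ in position along the heart alone, and each heart gave both. The AV canal and sinoatrial windows of heart 1 follow the study, which set its regions by gene clusters and marker genes; sections that it counted in both a chamber and one of these regions are non-chamber here. Those of hearts 2 and 3 were carried over from heart 1 by the positions of the ventricular and the atrial myosin genes. A section is a slice through the whole tube that holds myocardium, endocardium and blood, so fewer cells of a type and less RNA per cell cannot be told apart.

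Working myocardium of the chambers contracts strongly and conducts fast, and makes natriuretic peptides. In the AV canal, Bmp signals switch on T-box repressors of the Tbx2 and Tbx3 kind, which hold the chamber program down and leave the canal slowly conducting, while the cushions that become valves form beneath it. The sinoatrial region at the inflow pole holds the pacemaker cells, which in zebrafish express the transcription factor isl1.

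Depth differed between the sums. Non-chamber sections gave 2344199, 597495 and 1690212 gene reads in hearts 1, 2 and 3, and chamber sections gave 1820981, 532150 and 623505. The AV canal supplied 83.7%, 51.1% and 96.6% of the non-chamber reads, and the ventricle supplied 76.02%, 79.5% and 36.01% of the chamber reads, so the sums weighted their regions differently from heart to heart. In heart 3 a single section held 42.1% of the non-chamber reads, and the sinoatrial region had 57203 reads in all, from 975 genes. Levels are given as scaled reads per 10000, which are reads per 10000 gene reads of the genes tested after correction for composition. Group sums and region sums were corrected separately, so levels by region and levels by group are not on the same scale. A group level can thus lie below those of both its regions, as for nppa in the chambers of heart 1. A count of 0 in a group sum allows between 0.0172 and 0.0569 scaled reads per 10000 (3 reads). A 0 in the sum of a single region allows more, since these sums hold fewer reads. In the atrium of heart 2, 3 reads stand for 0.230. These limits and the intervals below cover counting error only. Whether the hearts came from separate clutches is not stated. The p-values of non-chamber sections against chambers rest on the spread between these 3 animals, drawn strongly toward a trend over genes of like level (prior degrees of freedom 8.80). For 42 genes no residual degree of freedom was left, and their p-values rest on the trend alone. Those of the region contrasts given below rest on that trend alone. A gene row printed in capitals carries the symbol of its human match.

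The chamber myosins show how the windows lie. They had placed the windows of hearts 2 and 3, so there they are no independent check. The ventricular myosin row, named MYH6 after its human match (ENSDARG00000079564), stood at 99.6, 15.4 and 135 scaled reads per 10000 within the AV canal windows of hearts 1, 2 and 3, and the ventricle windows held 124, 62.5 and 46.4. The atrial myosin gene myh6 (ENSDARG00000090637) stood at 39.7, 19.9 and 3.16 in the sinoatrial region, against 52.3, 38.2 and 8.999 in the atrium. In heart 3 the AV canal window thus held more ventricular myosin than the ventricle window, and the groups of heart 3 are less sharply parted than the names of the windows say. In heart 1 the canal's 99.6 lay not far below the ventricle's 124. Sections 19 to 22 of heart 1, counted by the study as ventricle too, gave 422752, 261380, 437662 and 216352 of its 2344199 non-chamber gene reads. Sections 33 to 37 it also counted as atrium. Much of the non-chamber sum of heart 1 thus comes from sections shared with a chamber. Pacemaker markers were at or near 0. For isl1, 13 reads fell in the sinoatrial region of heart 1, 0 in those of hearts 2 and 3, and 46 in the atrium of heart 3. SHOX2 gave 23 reads in the sinoatrial region of heart 1, 0 in those of hearts 2 and 3, and 4 in the chambers of heart 3. TBX3 gave 23 reads in the sinoatrial region of heart 2 alone. In heart 3, bmp4 and tbx2b stood at 6.16 and 2.04 in the atrium window, against 0 and 0.662 in the sinoatrial window. The sinoatrial window of heart 3 is thus named by its carried-over position, and these markers do not bear the name out.

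Expression of tbx2b, a T-box repressor of chamber genes, was 3.56, 2.77 and 1.98 scaled reads per 10000 in the non-chamber sections of hearts 1, 2 and 3, from 559, 174 and 345 reads, against 0.527, 0.626 and 1.12 in the working chambers, from 63, 33 and 100 reads. The lowest non-chamber heart lay above the highest chamber heart. Averages were 2.77 ± 0.790 and 0.758 ± 0.319 (SD, n = 3 each), and the fitted difference was 1.90 on the log2 scale (SE 0.68). Both regions held tbx2b in heart 1, with an AV canal level of 3.97 and a sinoatrial level of 4.75, against 0.0488 in the ventricle and 2.25 in the atrium. Heart 2 had 2.76 and 3.31 in those non-chamber regions, against 0.652 and 0.842 in ventricle and atrium. For heart 3 the AV canal level was 2.51, but it was 0.662 in the sinoatrial region, from 9 reads, against 0 in the ventricle and 2.04 in the atrium. The study used tbx2b, bmp4 and nppa to place the windows of heart 1, so these values describe the windows and support nothing on their own. Of all genes tested, 7.99% did not overlap between groups and were higher in the non-chamber sections, and 3.28% did not overlap and were lower there.

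The ligand bmp4 (row BMP4, ENSDARG00000019995) was not higher outside the chambers as a group. Its level was 3.95, 2.62 and 2.60 scaled reads per 10000 in the non-chamber sections of hearts 1, 2 and 3, against 2.24, 3.68 and 3.70 in the working chambers. Only heart 1, where bmp4 helped to set the windows, was higher outside the chambers, and the fitted difference was -0.07 on the log2 scale (SE 0.53). By region, bmp4 had AV canal levels of 4.90, 2.61 and 3.39 and sinoatrial levels of 3.40, 3.14 and 0, against 3.10, 2.52 and 0.867 in the ventricle and 0.534, 8.34 and 6.16 in the atrium. The high atrial windows of hearts 2 and 3 were the ones that differed from heart 1. A second row with the human match TBX2 (ENSDARG00000018025), whose reads may be shared with tbx2b where the copies are alike, stood at 0.636, 6.73 and 1.82 in the non-chamber sections, against 0.159, 1.52 and 2.00 in the chambers. It was higher in 2 of 3 hearts.

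The chamber marker nppa, a natriuretic peptide gene, was lower in the non-chamber sections of every heart. It stood at 46.3, 44.8 and 63.4 scaled reads per 10000 there, against 67.9, 89.3 and 85.9 in the working chambers, and the groups did not overlap. The averages were 51.5 ± 10.4 and 81.03 ± 11.5 (SD, n = 3 each), with a fitted difference of -0.66 on the log2 scale (SE 0.33). By region, the sinoatrial region had 44.1, 4.58 and 18.9, against 81.5, 85.5 and 123 in the atrium, while the AV canal had 56.2, 98.5 and 80.9, against 73.1, 106 and 50.5 in the ventricle. Of the non-chamber nppa reads, 1235 of 7272 in heart 1, 137 of 2817 in heart 2 and 257 of 11070 in heart 3 came from the sinoatrial region. Its neighbour in function nppb stood at 22.5, 10.8 and 29.3 in the non-chamber sections, against 41.7, 20.1 and 26.04 in the chambers, lower in hearts 1 and 2 and, on totals without the composition correction, in all 3 hearts.

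**Figure D1:**
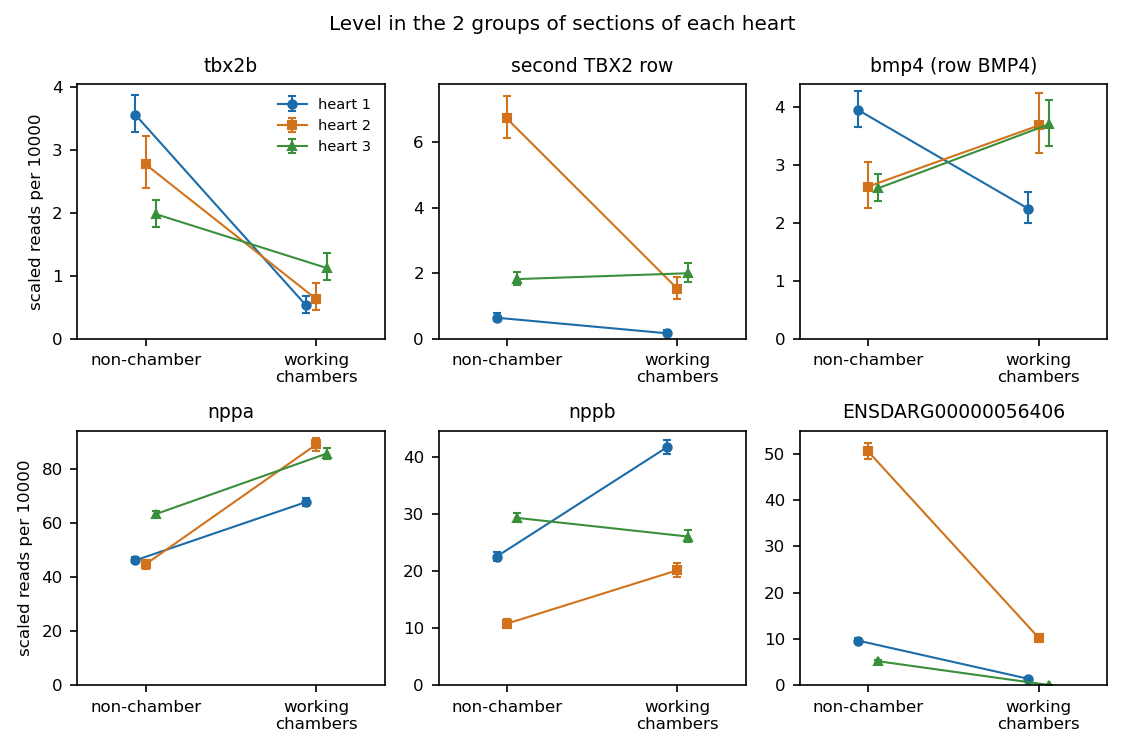
Scaled reads per 10000 (vertical axis) in the non-chamber and the working chamber sections of hearts 1, 2 and 3, for 6 genes; bars are 95% Wilson limits, for counting error only. Every heart had tbx2b higher and nppa lower in its non-chamber sections, while the lines of bmp4 cross.

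The markers differed in how many slices held them. Reads of tbx2b came from 21 of the 45 non-chamber sections and 10 of the 39 chamber sections, and the leading section gave 32.6%, 26.4% and 53.9% of its non-chamber reads in hearts 1, 2 and 3. nppa was read in 36 non-chamber and 38 chamber sections, and its leading section gave 25.4%, 41.0% and 39.6% of the non-chamber reads.

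**Figure D2:**
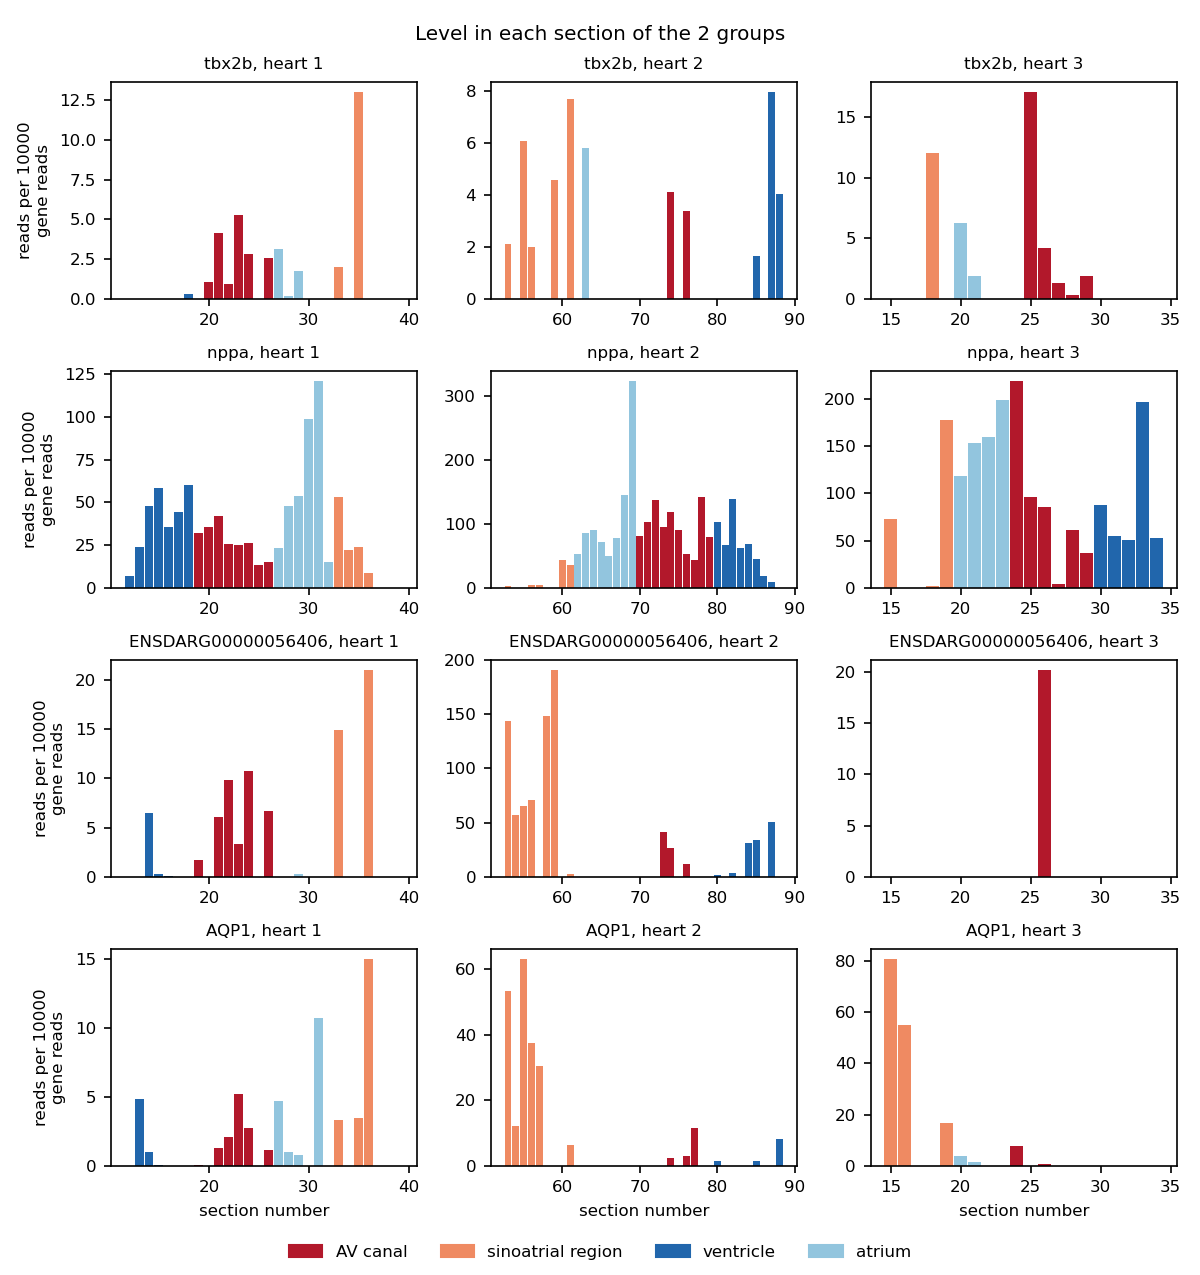
Reads per 10000 gene reads of a section (vertical axis) along the section number (horizontal axis) in each heart, for tbx2b, nppa, ENSDARG00000056406 and AQP1, coloured by region; sections in neither group are not drawn. Hearts 2 and 3 were cut from the inflow pole, so their sinoatrial sections lie at the left. AQP1 stands highest in sinoatrial sections.

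Across the transcriptome, no gene passed the test between non-chamber sections and working chambers. Of 4671 genes tested, 0 (0%) had an adjusted p under 0.05 in a quasi-likelihood test with the heart as block and Benjamini-Hochberg adjustment, and 60 had an unadjusted p under 0.05, 44 higher (0.942%) and 16 lower (0.343%). The median standard error of a log2 fold, an approximate value worked back from the fold and its test statistic, was 1.86. By that measure, even differences of manyfold were hardly detectable for most genes with 3 hearts. Fitted log2 differences of 5.43 for fkbp8 and -6.61 for FLCN did not pass. The 0 calls thus do not exclude large differences. In all, 749 genes (16.0%) were higher and 384 (8.22%) were lower in the non-chamber sections of all 3 hearts. The median log2 fold over all genes was 0.25, and the median log2 ratio within hearts 1, 2 and 3 was 0.007, 0.09 and 0.62, so the shift lay mainly in heart 3, where 309 of the genes tested had no read in the non-chamber sum, against 1265 in the chamber sum. Calls appeared when a heart was left out: 2 genes without heart 1, 3 without heart 2 and 12 without heart 3. Those fits judged genes almost wholly by the trend with level, so their calls do not measure how alike the remaining hearts were.

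The gene with the smallest p was ENSDARG00000056406, for which the reference tables gave no symbol. It stood at 9.63, 50.6 and 5.14 scaled reads per 10000 in the non-chamber sections of hearts 1, 2 and 3, from 1513, 3178 and 897 reads, against 1.34, 10.2 and 0 in the chambers, from 160, 538 and 0 reads. Each heart was higher outside the chambers, although heart 1's non-chamber level lay below heart 2's chamber level, so the groups overlapped. The fitted difference was 3.83 on the log2 scale (SE 1.04, unadjusted p = 0.00376, adjusted p = 1). Its reads came from 19 non-chamber and 9 chamber sections, but in heart 3 all 897 lay in a single section. Of the 17 alternative settings, 9 gave any call, and this gene was among the calls in 9. All 9 drew variances closer to the trend with level than the reported fit did, so this count is no measure of agreement between hearts.

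The other genes of small p on the higher side had lower non-chamber levels than this one in each heart. HSD17B12, an enzyme of fatty acid elongation, stood at 0.534, 2.67 and 2.17 scaled reads per 10000 outside the chambers, against 0, 0.209 and 0.224 within them, with a log2 difference of 4.19 (SE 1.19). For gabarapb, an autophagy gene of the ATG8 family, the levels were 3.70, 1.53 and 3.04, against 1.51, 0.133 and 0.594, and the log2 difference was 2.32 (SE 0.70). None of these genes passed the adjusted test. Of the non-chamber reads of HSD17B12, 68, 165 and 379 lay in the AV canal and 16, 3 and 0 in the sinoatrial region. For gabarapb the AV canal held 454, 48 and 531 reads and the sinoatrial region 128, 48 and 0. fkbp8, an immunophilin of the mitochondrial membrane, gave 97, 111 and 103 non-chamber reads against 0, 10 and 0 chamber reads, but the non-chamber reads came from 3 sections, 1 in each heart, all of the AV canal. tenm3, a teneurin of the cell surface, gave 72, 159 and 86 reads against 6, 6 and 0. Of its non-chamber reads, 63, 8 and 3 lay in the AV canal and 9, 151 and 83 in the sinoatrial region, so the leading region differed between hearts.

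On the lower side, PRUNE1, a phosphoesterase, stood at 0.579, 0.668 and 0 scaled reads per 10000 in the non-chamber sections, against 3.09, 5.77 and 0.875 in the working chambers, with a log2 difference of -3.75 (SE 1.03, unadjusted p = 0.0041). The groups did not overlap, but all 78 chamber reads of heart 3 lay in a single section, and the non-chamber reads of all hearts came from 2 sections. arl4ab, a small GTPase of the ARF-like family, stood at 0.623, 0.509 and 0.659, against 1.80, 2.37 and 3.08, with a log2 difference of -1.98 (SE 0.68). It too did not overlap, but all 275 chamber reads of heart 3 lay in a single section. Its direction turned when the first and last section of every run was left out, where the log2 difference was 0.40. FLCN, the folliculin gene, had no read in the non-chamber sections, against 18, 22 and 108 reads in the chambers of hearts 1, 2 and 3, at least 7.88-fold, 8.74-fold and 70.4-fold lower against a floor of 3 reads per sum. The chamber reads of FLCN came from 4 sections. SH3GLB1, an endophilin, gave 40, 0 and 1 reads against 103, 30 and 195, and CLASP2, which binds microtubule ends, gave 2, 0 and 3 against 53, 32 and 75.

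Known regulators of non-chamber myocardium were tested in 6 rows, and 1 of them, tbx2b, which had helped to place the windows, had an unadjusted p under 0.05. 2 of the 6, tbx2b and ID3, were higher in all 3 hearts, and id2b was lower in all 3, where the non-chamber levels were 3.78, 1.73 and 3.54, against 6.38, 2.52 and 5.63. ID3 and id2b encode inhibitors of helix-loop-helix factors and are targets of Bmp signals, and they pointed in opposite directions. The list's median log2 fold was 0.58, beside 0.25 over all genes. The list holds both tbx2b and bmp4, which helped to place the windows of heart 1, so this median is a description only. In the Bmp and TGF-beta pathway, 0 of 16 rows had an unadjusted p under 0.05, and the median was -0.20. The receptor gene bmpr2a was higher in all 3 hearts, at 1.18, 0.652 and 1.59 against 1.03, 0.0379 and 0.235. In the Notch and neuregulin pathway 0 of 13 rows reached that p, and none kept its direction in all 3 hearts.

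Wnt signals act through frizzled receptors and beta-catenin, and secreted inhibitors hold them back. Of 15 rows of Wnt receptors, ligands and inhibitors, 1 had an unadjusted p under 0.05: SFRP5, a secreted Wnt inhibitor, at 1.72, 26.7 and 5.70 scaled reads per 10000 in the non-chamber sections, against 1.17, 1.63 and 3.53 in the chambers (log2 1.64, SE 0.69, unadjusted p = 0.0357). ROR2, a receptor of Wnt ligands, gave 101, 57 and 171 reads against 60, 0 and 0, and the FZD7 row ENSDARG00000060004, 1 of several frizzled rows that may share reads, stood at 3.54, 7.70 and 1.89 against 3.46, 2.39 and 0. All 3 genes were higher in all 3 hearts, and heart 1 differed least in each of them. No other row of the 15 was, and 16.0% of all genes tested were. WNT9B, a Wnt ligand, was lower in all 3, at 0.242, 0.430 and 0.0802 against 0.401, 1.14 and 0.404. The list's median log2 fold was 0.12, beside 0.25 over all genes. Inside the cell, 0 of 14 rows had an unadjusted p under 0.05, 4 were higher and 2 lower in all 3 hearts, and the median was 0.41. APC, part of the complex that destroys beta-catenin, stood at 0.0636, 0.127 and 0.0917, against 0.385, 0.569 and 1.1999, while tcf7l2, a transcription factor of the pathway, gave 62, 11 and 103 reads against 41, 0 and 0.

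Genes of the working myocardium had medians below that of all genes, and none was called. Of 15 rows of the chamber program, 0 had an unadjusted p under 0.05, 2 were higher and 3 lower in all 3 hearts, and the median log2 fold was -0.33; on totals without the composition correction 7 were lower in all 3. The 3 lower rows included nppa, which had helped to place the windows of heart 1. nkx2.7, a cardiac homeobox gene, stood at 0.414, 0.207 and 0.0573, against 0.995, 1.78 and 0.471. GATA5, a cardiac transcription factor, went the other way, at 2.30, 4.20 and 2.85 against 1.65, 1.67 and 1.74, with no overlap. The sarcomere list had 0 of 33 rows at that p, with 3 lower and 2 higher in all 3 hearts and a median of -0.19, and 8 were lower on totals alone. Its summed level was 607, 271 and 664 in the non-chamber sections, against 786, 457 and 415 in the chambers, so heart 3 ran opposite to hearts 1 and 2. Calcium handling had 0 of 13 rows at that p, with 4 higher and 0 lower in all 3 hearts (3 lower on totals alone), among them trdn, the triadin of the calcium release unit, at 15.6, 1.34 and 4.32 against 13.5, 1.14 and 0.538, and calm1a, a calmodulin, at 3.18, 3.48 and 2.64 against 2.62, 1.80 and 1.12. The calcium channel gene cacna1c was also higher in each heart, at 2.82, 1.69 and 2.53 against 2.64, 0.759 and 1.11, but its direction turned where each section counted the same (log2 -0.71).

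Energy genes ran opposite ways in different hearts. Oxidative phosphorylation genes summed to 438, 196 and 416 scaled reads per 10000 in the non-chamber sections of hearts 1, 2 and 3, against 525, 324 and 232 in the chambers, lower in hearts 1 and 2 and higher in heart 3. In this list 0 of 73 rows had an unadjusted p under 0.05, the median was -0.03, and 2 rows were higher and 6 lower in all 3 hearts. In the tricarboxylic acid cycle 0 of 18 rows reached that p, and the 3 that were lower in all 3 hearts included IDH2, an isocitrate dehydrogenase, at 5.11, 3.17 and 4.63 against 5.63, 7.23 and 7.34, and SDHC, a subunit of succinate dehydrogenase, at 4.33, 1.88 and 2.74 against 5.63, 2.73 and 5.90. Glycolysis had 0 of 20 rows at that p and a median of 0.04, with sums of 138, 43.6 and 156 against 169, 58.5 and 78.5. The sums of the tricarboxylic acid cycle, the mitochondrially encoded and the glycolysis genes were likewise lower in hearts 1 and 2 and higher in heart 3. Among 11 mitochondrially encoded rows, mt-atp8 alone reached it, at 210, 43 and 124 reads against 64, 0 and 0.

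Genes of other cells in the slices were read in both groups. Of 12 endothelial and endocardial rows, AQP1, a water channel of vessel lining, was higher with an unadjusted p under 0.05 and FLI1, an endothelial transcription factor, was lower; 3 were higher and 4 lower in all 3 hearts, and the median was -0.55. The list's summed level was 19.6, 28.6 and 9.50 in the non-chamber sections, against 16.9, 11.7 and 22.2 in the chambers. Fibroblast-like and matrix genes had a median of 0.90 over 10 rows, with 1, COL6A2, at an unadjusted p under 0.05 and 3 higher in all 3 hearts, and a summed level of 9.28, 58.9 and 8.41 against 9.76, 13.4 and 7.31. Heart 2 set the size of that list. Valve cushion genes had 1 of 17 rows at that p, anxa5b, an annexin, with 175, 112 and 40 reads against 0, 17 and 0, and a median of 0.40. Of the non-chamber anxa5b reads, 175, 11 and 16 lay in the AV canal of hearts 1, 2 and 3, and 0, 101 and 24 in the sinoatrial region. HAS2, which makes the hyaluronan of the cushions, gave 101, 35 and 0 reads in the non-chamber sections, against 34, 26 and 24 in the chambers. Epicardial genes summed to 30.8, 87.6 and 18.8, against 30.6, 22.1 and 20.5, with 0 of 6 rows at that p. Red cell genes summed to 5.61, 72.1 and 6.29, against 47.1, 9.90 and 10.1, with 0 of 8 rows at that p, and neutrophil and macrophage genes to 15.5, 0.859 and 1.51, against 35.2, 17.8 and 2.37, with 1 of 3 rows, the MPEG1 row ENSDARG00000043093 of macrophages, at that p on the lower side. Skin genes summed to 12.97, 8.40 and 7.74, against 10.9, 12.96 and 15.4. With both regions pooled, summed levels of neutrophil and macrophage genes were lower in the non-chamber sections of all 3 hearts. In heart 1, however, their sinoatrial sum was 84.3, against 2.87 in the ventricle and 151.6 in the atrium. The neutrophil gene lyz held 11.2 of the non-chamber sum and 26.2 of the chamber sum of heart 1. It went the other way in heart 3, with 14 reads against 0. Pooled summed levels of endothelial, fibroblast-like, epicardial, red cell and skin genes ran different ways between hearts. Taken by region, epicardial genes summed to more in the sinoatrial region than in either chamber of every heart. Sinoatrial sums were 61.3, 163.8 and 64.6 in hearts 1, 2 and 3, against 33.98, 25.3 and 11.7 in the ventricle. The atrium held 33.5, 24.02 and 29.5, and the AV canal held 29.1, 22.2 and 17.9. This was not particular to epicardial genes. Sinoatrial sums of Bmp and TGF-beta genes were 39.4, 40.7 and 35.3, against 31.8, 25.4 and 26.5 in the ventricle. Their atrial sums were 22.7, 26.9 and 30.5. Notch and neuregulin genes had sinoatrial sums of 24.3, 18.6 and 20.7, against 22.8, 9.96 and 7.62 in the ventricle. Their atrial sums were 16.0, 14.2 and 8.41. The study places proepicardial cells in the sinoatrial region. The part of all these cell types in the differences above and in the region contrasts below was not tested.

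**Figure D3:**
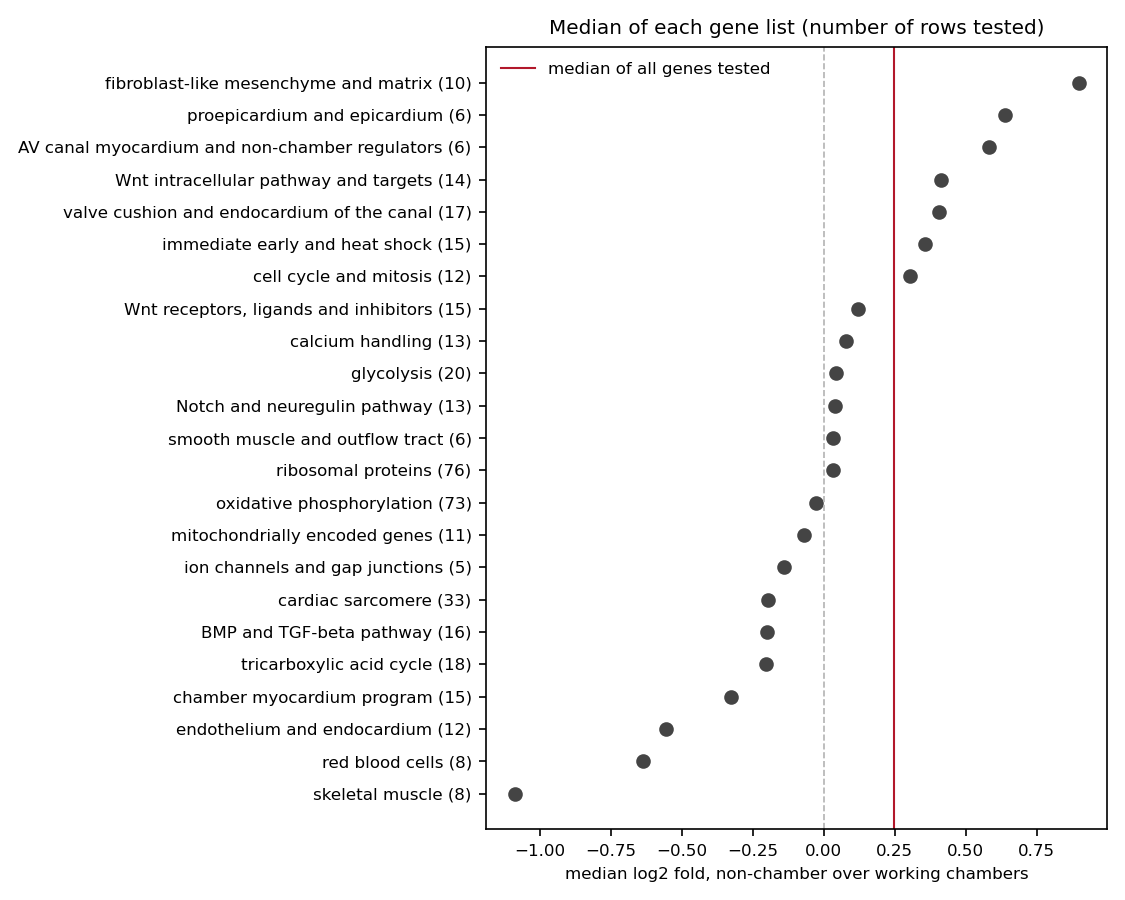
Median log2 fold of non-chamber sections over working chambers (horizontal axis) for each gene list with 5 or more rows tested; the red line is the median of all genes tested, 0.25. Fibroblast-like and matrix genes lie at 0.90 and red blood cell genes at -0.64.

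The AV canal and the sinoatrial region were then taken apart. Each was set against the mean of ventricle and atrium on the log2 scale, in 1 fit over 12 region sums with the heart as block; these contrasts share the chamber samples. The fit found no spread of variances beyond the trend with level, so each gene was judged by that trend and not by its own spread between hearts. A small p-value here is thus no measure of how alike the 3 hearts were. In the AV canal 3 genes (0.0642%) were higher and 1 (0.0214%) lower at an adjusted p under 0.05. In the sinoatrial region 4 (0.0856%) were higher and 8 (0.171%) lower, but with median-ratio factors 17 were higher and 8 lower, so the balance of directions depended on the scaling. The median log2 fold of all genes was 0.83 for the canal against the chambers, where 225 genes had an unadjusted p under 0.05, and it was -0.57 for the sinoatrial region, where 330 genes had an unadjusted p under 0.05. Without hearts 1, 2 and 3 in turn, the AV canal had 1, 2 and 7 calls, and the sinoatrial region had 3, 1 and 38.

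In the AV canal, ENSDARG00000056406 rose again, at 9.39, 19.2 and 6.71 scaled reads per 10000 in hearts 1, 2 and 3, against 1.90, 16.0 and 0 in the ventricle and 0.152, 0 and 0 in the atrium (log2 6.28, SE 0.81, adjusted p = 3.43e-11 by the limma-moderated quasi-likelihood test). It kept its call without any 1 of the hearts. In heart 2 the canal and the ventricle lay close together, so the fold rests largely on the near absence of reads in the atrium. The atrium held 4, 0 and 0 reads, so the size of the fold depends in part on the prior count. All 897 AV canal reads of heart 3 lay in 1 section. The ventricular myosin row MYH7 (ENSDARG00000079782) rose for the same comparison, with AV canal levels of 65.8, 5.73 and 61.2, against 108, 39.8 and 21.6 in the ventricle and 2.02, 0 and 0.0816 in the atrium (log2 2.33, SE 0.55, adjusted p = 0.0301); it was lower than the ventricle in hearts 1 and 2, and the call was lost without heart 1 (adjusted p = 0.181). The FILIP1 row ENSDARG00000079634 passed on 18, 0 and 125 AV canal reads, against 10 ventricular reads in heart 2 and none in any atrium, and lost its call without each heart (adjusted p = 1). PRUNE1 had no AV canal read, against 370, 246 and 0 reads in the ventricle and 0, 58 and 78 in the atrium. It was at least 122.4-fold, 58.9-fold and 42.8-fold lower in hearts 1, 2 and 3 against 3 reads per sum, but the 78 reads lay in a single section. PRUNE1 passed with an adjusted p of 0.0197, and without heart 1 or heart 2 the adjusted p was 1.

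The sinoatrial region was higher in a water channel, a collagen, a Wnt inhibitor and an unnamed gene. AQP1 had sinoatrial levels of 9.19, 41.3 and 17.7 scaled reads per 10000, against 1.12, 0.801 and 0 in the ventricle and 4.38, 0 and 1.37 in the atrium, above every chamber window of its own heart (log2 4.78, SE 0.89, adjusted p = 9.35e-05 by the limma-moderated quasi-likelihood test). SFRP5 stood at 2.40, 52.2 and 28.2, against 1.07, 0.889 and 4.52 in the ventricle and 1.98, 4.28 and 3.45 in the atrium (log2 3.00, SE 0.78, adjusted p = 0.0459). It was higher in each heart, by little in heart 1, and all 383 sinoatrial reads of heart 3 lay in a single section. ENSDARG00000056406 stood at 18.1, 88.8 and 0, with a log2 difference of 5.06 (adjusted p = 2.01e-09). COL6A2, a chain of collagen VI, had 0, 792 and 81 sinoatrial reads, against 19, 0 and 0 in the ventricle and none in the atrium (adjusted p = 2.4e-06). The 81 reads of heart 3 lay in the same single section as the sinoatrial SFRP5 reads of that heart. The fitted log2 difference of COL6A2, 9.45, depends on the prior count, since the atrium was at 0. Without heart 2 the adjusted p of AQP1 was 0.511, of SFRP5 1, of ENSDARG00000056406 0.829 and of COL6A2 1, and without heart 1 that of SFRP5 was 0.091. Heart 2 thus decided all 4 calls.

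The 8 genes that were lower at the sinoatrial region were chamber, contractile, energy and globin genes. nppb stood at 12.8, 0.234 and 1.91 there, against 50.7, 22.4 and 7.93 in the ventricle and 32.02, 23.5 and 42.2 in the atrium (log2 -3.25, SE 0.67, adjusted p = 0.000912), with no overlap within any heart. The ventricular row MYH6 stood at 7.29, 0.669 and 1.77, with a log2 difference of -3.48 (adjusted p = 0.000115), but the row was taken as vmhc, which placed the windows of hearts 2 and 3, so its value is a description. mb, the myoglobin gene, had no sinoatrial read, against 981, 511 and 0 in the ventricle and 21, 11 and 10 in the atrium, at least 86.4-fold and 111.2-fold lower in hearts 1 and 2 against 3 reads per sum, with no bound from the few reads of heart 3. pgam1a, a glycolytic mutase, had 32, 0 and 0 sinoatrial reads (log2 -5.10, adjusted p = 0.00295), and NDUFB9, a subunit of respiratory complex I, stood at 2.40, 7.12 and 0, against 19.1, 62.98 and 0.031 in the ventricle (log2 -3.04, adjusted p = 0.0291). The 3 others were globin rows, with hbae3 and hbbe3 at 0 sinoatrial reads and the HBE1 row ENSDARG00000087390 with 0, 24 and 0 reads (log2 -6.29, adjusted p = 0.000371). Against 3 reads per sum, hbae3 was at least 225.3-fold, 19.2-fold and 4.07-fold lower in hearts 1, 2 and 3, where 2502 of the 2613 chamber reads of heart 1 lay in a single section, and hbbe3 was at least 5.69-fold, 42.4-fold and 5.24-fold lower. The myocardial marker moved with them: MYL7, a myosin light chain of all heart muscle, stood at 35.6, 5.92 and 18.6, against 83.8, 59.6 and 43.7 in the ventricle and 60.98, 25.6 and 68.6 in the atrium. Its part in the lower levels was not tested. Each of the 8 calls was lost without heart 1 and likewise without heart 2 (adjusted p of 0.091 to 1), and held without heart 3.

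**Figure D4:**
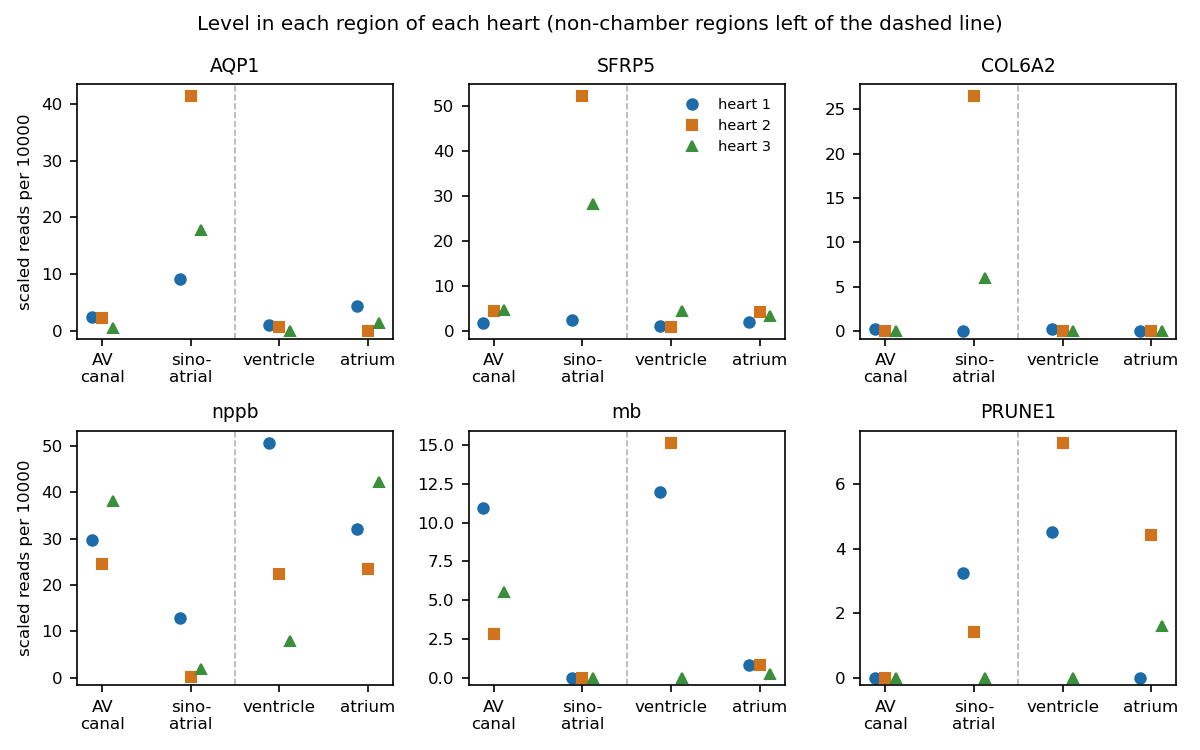
Scaled reads per 10000 (vertical axis) in the AV canal, sinoatrial region, ventricle and atrium of hearts 1, 2 and 3, for 6 genes with a call in a region contrast. AQP1 and SFRP5 peak in the sinoatrial region, nppb and mb are lowest there, and PRUNE1 has no read in the AV canal.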

How the data were processed

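Each heart came as 1 deposited table of whole-number read counts per gene and section. The authors made CEL-seq libraries from the sections and mapped the reads to the zebrafish genome Zv9; BWA 0.6.2 stands in the submitters' processing notes. No source used here says whether molecular identifiers were counted. The deposited counts are not normalised (unit other in the check, which could not read these tables as counts). Columns 17 to 24 of heart 1 were turned round as the labels ask, 171 columns outside the tissue were not used, and the 68 spike-in rows were left out. Of 16023 gene IDs, 12905 (80.5%) had a reference symbol; 1236 rows took the zebrafish name of a matching heart 1 profile in the study's source data. Near-identical copies may share reads.

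Counts were summed per group and heart, genes with at least 10 reads in each of the 3 hearts were kept (4671 of 13282 with a read), and sums were scaled by a trimmed mean of M-values. The study tested sections as samples; here the heart is the replicate and, because each animal gave both groups, a block. The quasi-likelihood test is a negative binomial fit in R 4.3.3 with variances squeezed by limma 3.58.1 and Benjamini-Hochberg adjustment. Each SE is the size of the fold over the square root of the test's F value. The fold holds a prior count and the F value does not, so the SE is approximate. It was tried on simulated counts that held no heart effect and no reads gathered in single sections. That trial cannot show how the test fares with such reads. The test stands in for the packaged count test that had been planned, and no value given comes from a packaged count test. The test was settled after results were seen: limma-voom came first (3 calls), then a form with 1 common dispersion (0 calls), then the form kept (0 calls), and the variance trend was held flat at both ends after the region fit had been seen. Members and lists were chosen with earlier results of these data known. Named genes are the 3 markers, the 5 smallest p values per direction with 1 sign in all 3 hearts, up to 4 per list described, the most abundant row and every call of the region fits. Alternatives changed scaling, filter, tool, weights, borders, section order and hearts.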

Additional observations from a re-analysis of the deposited data

Results flagged for a closer look

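The AV canal and the sinoatrial region differed from each other in 12 genes at an adjusted p under 0.05 of the limma-moderated quasi-likelihood test, 11 higher in the AV canal (0.235%) and 1 lower (0.0214%). With median-ratio factors 14 passed, 7 higher and 7 lower, and pln1, NDUFB9, atp5mc1 and the HBE1 row were no longer among them (adjusted p of 0.157, 0.0548, 0.0901 and 0.0951). As reported, the median of all genes was 1.44 on the log2 scale and 377 genes had an unadjusted p under 0.05. The log2 difference was 4.86 for the row MYH6 and 5.18 for MYH7, both ventricular myosin rows, of which MYH6 was taken as vmhc, which placed the windows of hearts 2 and 3, 5.65 for the ACTA1 row ENSDARG00000036371, an actin, and 4.03 for pln1. It was 3.48 for nppb, 6.04 for pgam1a, 3.51 for NDUFB9 and 3.37 for atp5mc1, a subunit of ATP synthase. Of these, ACTA1 stood at 5.62, 8.85 and 18.1 scaled reads per 10000 in the AV canal of hearts 1, 2 and 3, against 0.393, 0.468 and 0 in the sinoatrial region, and pln1 at 15.6, 3.53 and 20.5, against 1.07, 0 and 1.77. For genes with no sinoatrial read the fitted values depend on the prior count: mb had 9.88 and is at least 101.8-fold, 27.8-fold and 25.1-fold higher in the AV canal of hearts 1, 2 and 3 against 3 reads per sum. For hbae3 the fitted value was 9.84 with 6, 1563 and 1 AV canal reads, so it rests on heart 2, at least 572.6-fold higher there, and without heart 2 the adjusted p was 0.818. The HBE1 row ENSDARG00000087390 had 4.98, with 13, 1258 and 41 AV canal reads against 0, 24 and 0 sinoatrial reads. COL6A2 was lower in the AV canal by -8.28, with 28, 0 and 0 reads there against 0, 792 and 81 in the sinoatrial region. Without heart 1, 2 of the genes tested passed, COL6A2 and MYH6; without heart 2, 1 passed, MYH6; without heart 3, 40 passed. The depth of the sinoatrial region of heart 3, 57203 reads, moved with these values, and its part was not tested.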

How the results depend on the processing

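The count of genes past the test between non-chamber sections and working chambers, 0 as reported, was 8 with limma on log2(CPM + 1), 5 with no filter on low counts, 5 with at least 10 reads in 2 of the 3 hearts, 10 with the 4 regions weighted equally, 2 with each section weighted equally, and 3 with limma-voom, an alternative chosen after seeing the data. Leaving out 1 heart gave 2 to 12. Every setting with calls drew variances closer to the trend (prior degrees of freedom 47.1 or more) than the reported fit (8.80). The part of this in the calls was not tested. It stayed at 0 with median-ratio factors, with total gene reads, without sections under 10000 gene reads, without run ends, in the deposited order of heart 1, without the most abundant row and with 1 common dispersion (715 genes at an unadjusted p under 0.05). With no replicate block it was also 0, and 124 genes had an unadjusted p under 0.05. The count of the AV canal against the chambers, 4 as reported, was 1 to 7 without 1 heart. That of the sinoatrial region against the chambers, 12 as reported, was 25 with median-ratio factors (17 higher and 8 lower) and 1 to 38 without 1 heart. That of the AV canal against the sinoatrial region, 12 as reported, was 1 to 40 without 1 heart. The planned Wald test with median-ratio factors was not run. The median log2 fold of all genes was 0.16 on totals and 0.22 with median-ratio factors. Of 672 values for 40 genes, 640 kept direction and side of the threshold, 24 passed it and 8 changed sign: BMP4 was 0.24 without run ends, -0.52 to 0.19 without 1 heart (0.18 without heart 2), and 0.013 with limma-voom; TBX2 was -0.41 and cacna1c -0.71 with each section weighted equally; arl4ab was 0.40 without run ends; and the most abundant row ENSDARG00000080337, 0.41 as reported, was -0.089 to 0.80 without 1 heart, lowest without heart 3. These 40 genes were picked after sign changes had been seen, so the share is no measure of stability. The 15 genes left out of them, given above by level or region only, changed sign in 43 of 254 values of this comparison, 14 of the 15 at least once. In the region contrasts 53 of 112 values lost their call and 0 changed sign; the causes were not tested. Depth limits genes of few reads, since 1265 genes tested had no read in the chambers of heart 3.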

Other observations

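The most abundant row, ENSDARG00000080337, took 42.9%, 29.1% and 22.7% of the gene reads of the non-chamber sections of hearts 1, 2 and 3, against 39.7%, 33.7% and 11.4% of those of the working chambers. Neutrophil gene lyz, which encodes lysozyme, had 1732 reads in the sinoatrial region of heart 1 and 0 in those of hearts 2 and 3, against 3125, 712 and 0 in the atrium. RGS6, a regulator of G protein signals known from the mammalian heart as a brake on vagal slowing, gave 30, 91 and 77 reads in the non-chamber sections, against 16, 0 and 26 in the chambers, and did not pass the test. Of the 77 reads in heart 3, 66 lay in the AV canal. RGS6 was 1 of 3 rows of pacemaker genes tested. VSNL1 was higher in the non-chamber sections of 2 hearts and CACNA1G in those of 1 heart. Ribosomal protein genes had 0 of 76 rows with an unadjusted p under 0.05 and a median log2 fold of 0.03, beside 0.25 over all genes, with 7 higher and 5 lower in all 3 hearts.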
